A study of Drosophila melanogaster with 12 samples.

Results

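The transcripts of 9 genes that encode neuronal RNA-binding proteins and regulators of local translation were followed through a Pumilio immunopurification from adult fly heads. The genes are orb2, Fmr1, stau, Syp, Imp, Atx2, shep, bru3 and mub. They were taken by their FlyBase symbols, all 9 matched a row, and they make up 9 of 10422 genes and 429 of 56392 clusters of 3′ ends in the tables. The assay was xRIP-3′-seq, in which proteins are cross-linked to bound RNA by UV light, an anti-Flag antibody recovers the protein, and sequencing reads the 3′ ends of the recovered RNA. All libraries came from heads of adult Drosophila melanogaster, with the genotype field reading wt throughout. The Pum xRIP group held 4 libraries of pumFlag flies, whose endogenous pumilio gene carries a Flag-HA tag at its C-terminus. The control xRIP group held 4 libraries of the same purification from w118 flies, which have no tag. The input group held 4 libraries of cross-linked head homogenate before purification, 1 from pum flies, 1 from w118 flies and 2 that the labels describe as inputs of mixed genotype. Libraries are named by group and number, and the inputs by their column names pum, w118, fne and rbp9. Whole heads hold eye, glia, muscle and fat body beside neurons, so a lower level of a transcript in bulk RNA cannot be told apart from fewer of the cells that make it.

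Pumilio (Pum) belongs to the PUF family of proteins, which read a short element in 3′ untranslated regions (3′ UTRs) and commonly repress or destabilise the mRNA. Neurons also use other RNA-binding proteins to carry mRNAs into axons and dendrites, keep them silent on the way and release them for translation near synapses. Several of these proteins control one another's mRNAs, and the question asked here is which of the 9 transcripts were recovered with Pum, at which level and through which 3′ ends.

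The Pumilio Response Element (PRE) was searched as TGTANATA, where N is any base, on the transcript strand of the longest 3′ UTR that the annotation gives a gene. The 9 elements found lay in 3 of the 9 transcripts, and all are shown because they are the letters that Pum is known to read. The element is in capitals, the flanks are in lower case, and each name gives the dm6 position of the element, all on the minus strand within a 3′ UTR.
orb2 chr3L:8939004-8939011: ttttataacatTGTAAATAaataaaacttt
orb2 chr3L:8938048-8938055: atatatatataTGTACATAtatataatgtt
bru3 chr3L:13535366-13535373: aggagtaatatTGTAAATAtagaaaatgaa
bru3 chr3L:13524460-13524467: aagttatttttTGTAGATAaaactgttatc
bru3 chr3L:13524323-13524330: cgaatttatatTGTATATAgtataaagccc
Imp chrX:10793784-10793791: gggatgggaggTGTATATAagaatgttgct
Imp chrX:10793713-10793720: cgctatatatgTGTATATAtgcgatatata
Imp chrX:10793619-10793626: atatatatataTGTATATAaatgtaatcaa
Imp chrX:10792032-10792039: ttttttatataTGTACATAtatatataaat

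The stricter form TGTAAATA stood once in orb2 and once in bru3 and in no other member. Long 3′ UTRs hold the element often, so each count is set beside genes whose longest 3′ UTR is of like length, within 25%. The orb2 3′ UTR was 5791 nt long, and 73.4% of 94 genes of like length held at least 1 element. For bru3, with 8845 nt, the share was 88.0% of 25 genes, and for Imp, with 9200 nt, it was 90.9% of 22 genes. No element was found in mub over 9514 nt, where 91.7% of 24 genes of like length had one. None was found in shep (5828 nt, 72.8% of 92 genes), Syp (4604 nt, 72.7% of 154 genes), stau (1885 nt, 50.3% of 600 genes), Fmr1 (1812 nt, 48.5% of 612 genes) or Atx2 (1725 nt, 47.4% of 618 genes). Among all 7394 tested genes with an annotated 3′ UTR the share was 23.6%, at a median length of 344.5 nt. The reversed motif ATANATGT, searched in the same way, stood in 6 of the 9 members, 15 times in all, and in 20.4% of all tested genes.

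Library totals lay between 3050717 and 5051009 counts in Pum xRIP, between 3342790 and 4485996 in control xRIP and between 9563433 and 13726254 in input. A 3′ end that was seen at all had a median of 78 to 193 counts in the Pum xRIP libraries and 73 to 105 in the control xRIP libraries, against 25 to 28 in input. Scatter between replicates differed by group, with a common dispersion of edgeR of 3.84 for Pum xRIP libraries, 5.08 for control xRIP libraries and 0.226 for inputs. The summed level of 7 neuronal marker genes was 2140 to 2329 CPM (counts relative to library size, as scaled by the TMM method of edgeR) in Pum xRIP, 488 to 774 in the controls and 1619 to 2528 in input, with each of the 7 detected in each group. The summed level of 5 muscle markers was 128 to 348 CPM in Pum xRIP, 749 to 1226 in the controls and 517.5 to 1137 in input. Glial markers summed to 1058 to 1833, 1490 to 1979 and 1824 to 2975 CPM in the same order of groups, and photoreceptor markers to 14871 to 18262, 7227 to 8740 and 22317 to 28128 CPM. Fat body markers summed to 3593 to 6043, 2043 to 3111 and 4383 to 11117 CPM. All 3 male germ line markers in the table were at 0 in Pum xRIP and summed to 104 to 289 CPM in control xRIP and 2.02 to 58.9 CPM in input. These marker levels moved with the groups compared below, and their part in the results was not tested.

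Of the 9 transcripts, orb2 and bru3 stood above all inputs in all 4 Pum xRIP libraries, mub was higher on average with overlapping ranges, and shep, Syp, stau and Fmr1 stood below all inputs in all 4. Across all 7645 genes tested, 5.57% stood above every input and 22.6% below every input in the same sense, so 2 of 9 above and 4 of 9 below are to be read against those shares. Fmr1, among those below, had 0 counts in all Pum xRIP libraries and could stand below only. Its place there is no support for a difference. The levels of Imp and Atx2 in Pum xRIP overlapped those in input. All 9 genes passed the filter on low counts.

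**Figure D1:**
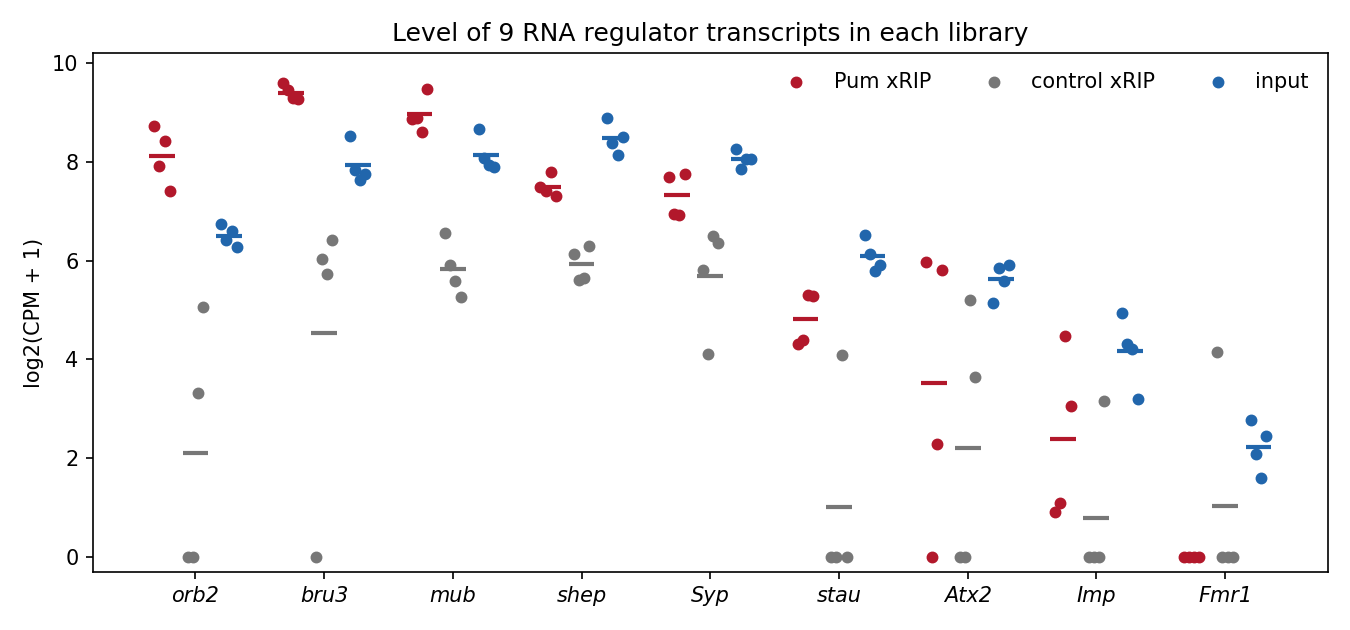
Level of each transcript as log2(CPM + 1) in each of the 12 libraries, with points for libraries and bars for the mean of the plotted values of each group of 4. The Pum xRIP points of orb2 and bru3 lie above all input points, those of mub overlap the input, and those of shep, Syp, stau and Fmr1 lie below.

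The gene orb2 encodes the fly neuronal protein of the cytoplasmic polyadenylation element binding family, which acts in long-term memory. Its level in Pum xRIP libraries 1 to 4 was 421, 241, 340.4 and 169.8 CPM. In control xRIP the level was 0 CPM in libraries 1 and 2, 8.98 CPM in library 3 and 32.5 CPM in library 4. The inputs held 106, 84.7, 96.0 and 75.9 CPM in the order pum, w118, fne and rbp9. The lowest Pum xRIP library thus stood above the highest input, and no control library reached the lowest input. The mean level was 293 ± 110.2 CPM for Pum xRIP, against 90.6 ± 13.1 CPM for input and 10.4 ± 15.4 CPM for control xRIP (each SD, n = 4). In all, 1319 annotated exon bases of orb2 are shared with CG43783 on the same strand, so how reads there were assigned is uncertain.

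The gene bru3 encodes an RNA-binding protein of the CELF family. Its level in Pum xRIP was 767, 702, 621 and 616 CPM, a mean of 676 ± 71.9 CPM (SD, n = 4). Control xRIP held 0, 64.1, 52.0 and 84.5 CPM. The inputs held 367, 225, 196 and 214 CPM, and the pum input, from tagged flies, was the highest of them. All 4 Pum xRIP libraries stood above all 4 inputs, and all control libraries below.

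The product of mub is a KH-domain protein named for its expression in mushroom bodies, the memory centres of the insect brain. Its level was 467, 475, 385 and 706 CPM in Pum xRIP and 93.8, 59.1, 46.8 and 37.5 CPM in control xRIP. The inputs held 407, 268.5, 243 and 238 CPM. Pum xRIP library 3 lay below the pum input, and the other Pum xRIP libraries lay above every input. The mean ratio of Pum xRIP to input was 1.76, against 3.24 for orb2 and 2.70 for bru3. These ratios use the mean of all 4 inputs, and the pum input, from tagged flies, stood above that mean. It held 407 CPM against a mean of 289 for mub, 367 against 251 for bru3 and 106 against 90.6 for orb2. The pum input was the highest input for every member except Atx2, where it was the lowest.

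The shep product is an RRM-domain protein, alan shepard, of the nervous system, and that of Syp is Syncrip, an hnRNP that binds neuronal mRNAs. Levels of shep were 179, 168, 220.4 and 158 CPM in Pum xRIP, 69.2, 47.6, 49.4 and 77.9 CPM in control xRIP and 473, 330.2, 282 and 362 CPM in input. For Syp they were 207, 122, 121 and 214 CPM in Pum xRIP, 54.9, 16.2, 89.2 and 80.7 CPM in control xRIP and 307, 231, 265 and 264 CPM in input. In both genes the Pum xRIP libraries lay between the other groups without overlap. The mean ratio of Pum xRIP to input was 0.501 for shep and 0.622 for Syp.

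Staufen, the product of stau, binds double-stranded RNA and carries mRNAs in oocytes and neurons. Its transcript stood at 18.8, 20, 38.7 and 38.0 CPM in Pum xRIP, at 0, 0, 16.04 and 0 CPM in control xRIP and at 90.7, 68.9, 53.9 and 58.9 CPM in input. Ataxin-2, the product of Atx2, is a partner of poly(A)-binding protein that acts in translation and RNA granules. Its transcript stood at 61.4, 0, 3.89 and 55.3 CPM in Pum xRIP, at 0, 0, 35.6 and 11.5 CPM in control xRIP and at 34.1, 56.5, 47.2 and 59.2 CPM in input. Pum xRIP held stau below every input and above every control library. For Atx2, Pum xRIP libraries 1 and 4 were at the level of input and libraries 2 and 3 far below it.

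Imp encodes the fly IGF2 mRNA-binding protein, which in the fly marks early-born neurons and travels with mRNA granules. It stood at 0.89, 1.15, 21.1 and 7.31 CPM in Pum xRIP, at 0, 0, 0 and 7.93 CPM in control xRIP and at 29.7, 18.9, 17.4 and 8.19 CPM in input. Its 3′ UTR held 4 elements, and its mean ratio of Pum xRIP to input was 0.410. The annotated exons of Imp share 1955 bases with the same-strand lncRNA:CR45204 and 9 bases with the opposite-strand lncRNA:CR45624.

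Fmr1 encodes the fly fragile X protein, a repressor of translation at synapses. It had 0 counts in all 4 Pum xRIP libraries, 61 counts in control xRIP library 1 and none in the other controls. The inputs held 46, 49, 23 and 46 counts, or 5.84, 3.27, 2.05 and 4.43 CPM. A floor of 3 counts over the Pum xRIP group, 0.158 CPM, puts the transcript at least 24.7-fold lower in Pum xRIP than in input. This limit covers counting error only. At its mean input level Fmr1 would give 13.1 to 23.8 counts in a Pum xRIP library, fewer than the median of 78 to 193 counts that a detected 3′ end had there.

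The comparison of Pum xRIP with input asks which transcripts purification enriched. In the quasi-likelihood test of edgeR on all 12 libraries, with a call at an adjusted p below 0.05 and an absolute log2 fold change above 1, 0 of 9 members were called higher and 0 lower. Of all genes, 0.549% were called higher and 4.87% lower. In simulated counts each group had its own scatter, and genes were changed in Pum xRIP only. In the comparisons with Pum xRIP this test recovered the direction and size of the changes, but most genes it called had not been changed. In control xRIP against input no gene had been changed, so any call there was false by design. The adjusted p-values of this test thus do not hold the share of false calls at their stated level. The calls below are read with that limit, beside the values in each library. At an unadjusted p below 0.05, 3 of 9 members passed, against 18.2% of all genes. Fmr1 was among them, and with 0 Pum xRIP counts it could come out lower only. The log2 fold change was 1.69 ± 1.20 for orb2 (SE, adjusted p = 0.684), 1.43 ± 0.90 for bru3 (adjusted p = 0.579), 0.81 ± 0.38 for mub (adjusted p = 0.273) and −1.0 ± 0.37 for shep (adjusted p = 0.130). The other values were −0.68 for Syp, −1.24 for stau, −1.28 for Imp and −0.71 for Atx2, with adjusted p of 0.719 to 0.995. Without Pum xRIP library 3 the value of Imp was −2.57, and without library 1 that of Atx2 was −1.33. For Fmr1 the adjusted p was 0.102. The median over the members was −0.71, and that over all genes tested was −0.54.

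Fits on the libraries of these 2 groups alone, which also changed the filter and the scaling, gave other calls, and what changed them was not tested. With the control xRIP libraries left out of the fit, edgeR called orb2 higher (log2 fold change 1.66, adjusted p = 0.00729), bru3 higher (1.41, adjusted p = 0.00407), shep lower (−1.03, adjusted p = 0.0106) and Fmr1 lower (adjusted p = 0.00268), where 3.49% of all genes were called higher and 12.5% lower. DESeq2 on the same 8 libraries called orb2 higher (1.72, adjusted p = 0.000111), bru3 higher (1.47, adjusted p = 1.05e-05), stau lower (−1.23, adjusted p = 0.00682) and Fmr1 lower (adjusted p = 6.69e-06), where 5.22% of all genes were higher and 18.5% lower. Fold changes of orb2 and bru3 moved by less than their SE between these fits. Without control xRIP library 1, which had no bru3 counts and all of the Fmr1 counts of that group, the test on all groups called bru3 higher (1.35, adjusted p = 0.0190) and Fmr1 lower (adjusted p = 0.0160). In these fits Fmr1 had counts in the inputs alone and could be called lower only, so its calls are no support for a difference.

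The control xRIP against input shows what the beads recovered without a tagged protein. In 7 of 9 members all control libraries lay below all inputs, the exceptions being Fmr1 and Atx2, where 31.8% of all genes tested did so. The test called 3 of 9 lower and 0 higher, against 10.7% and 1.82% of all genes. Those 3 were shep (log2 fold change −2.57 ± 0.39 SE, adjusted p = 0.000898), mub (−2.29 ± 0.39, adjusted p = 0.00245) and Syp (−2.15 ± 0.53, adjusted p = 0.0170). The values that were not called were −4.08 for stau, −3.21 for Imp, −3.12 for orb2, −2.32 for bru3, −2.06 for Atx2 and 0.11 for Fmr1. The median over the members was −2.32, against −0.83 over all genes tested. The call of Syp was lost without the 2 inputs of mixed genotype (adjusted p = 0.121). A call was gained for stau without control xRIP library 3 (adjusted p = 0.00181), for orb2 and Imp without library 4 (adjusted p = 0.0296 and 0.0298), and for bru3 and Fmr1 without library 1 (adjusted p = 0.00279 and 0.0171). Without library 4 the value was −5.15 for orb2 and −2.95 for bru3, and without library 3 it was −3.91 for Atx2. The values of stau without library 3 and of Imp without library 4 were −11.9 and −10.01, fitted against controls with no counts, so that they are no measure of size. Fmr1 also had no control counts left without library 1. These calls of stau, Imp and Fmr1 could go in this direction only and are no support for a difference.

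The comparison of Pum xRIP and control xRIP shares libraries with both comparisons above. Each Pum xRIP library exceeded each control library for 6 of 9 members, namely orb2, bru3, mub, shep, Syp and stau, against 9.95% of all genes tested. The test called 4 of 9 higher and 0 lower, against 7.72% and 4.45% of all genes. The 4 were orb2 (log2 fold change 4.82 ± 1.37 SE, adjusted p = 0.0367), bru3 (3.75 ± 0.99, adjusted p = 0.0272), mub (3.10 ± 0.41, adjusted p = 0.000334) and shep (1.57 ± 0.37, adjusted p = 0.0162). Those not called were stau at 2.85, Imp at 1.93, Syp at 1.46 (adjusted p = 0.0664), Atx2 at 1.35 and Fmr1, whose Pum xRIP libraries were at 0 (adjusted p = 0.0599). The median over the members was 1.93 and that over all genes tested was 0.00. Scaling by library totals or by DESeq2 size factors moved that all-gene median to 0.27, with Syp then called higher as well (1.76 and 1.77).

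The calls of mub held in each of the 12 fits that left out 1 library, with adjusted p up to 0.00177, and those of shep did too, with adjusted p up to 0.0395. That of orb2 was kept in 3 of the 12, those without control xRIP library 1, 2 or 4, and its adjusted p ranged from 0.0150 to 0.0723. Its log2 fold change was 6.76 without control xRIP library 4, which held most of the orb2 counts of that group. The call of bru3 was lost without Pum xRIP library 1, 3 or 4 or control xRIP library 3, with adjusted p of 0.0509 to 0.0547. Without control xRIP library 3, the only control with stau counts, stau was called higher (adjusted p = 0.00251), at a fitted value of 10.57 that is no measure of size because no control counts were left. That call could go in this direction only and is no support for a difference. The value of Imp without control xRIP library 4, 8.63, is no measure of size for the same reason, and without Pum xRIP library 3 it was 0.65. For Atx2 the value was 3.09 without control xRIP library 3 and 0.75 without Pum xRIP library 1. With edgeR on the groups compared, mub and bru3 were called, and orb2 and shep were not (adjusted p = 0.0665 and 0.0737). Without the 2 inputs of mixed genotype mub alone was called, and the adjusted p of shep, bru3 and orb2 were 0.0745, 0.0748 and 0.10.

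**Figure D2:**
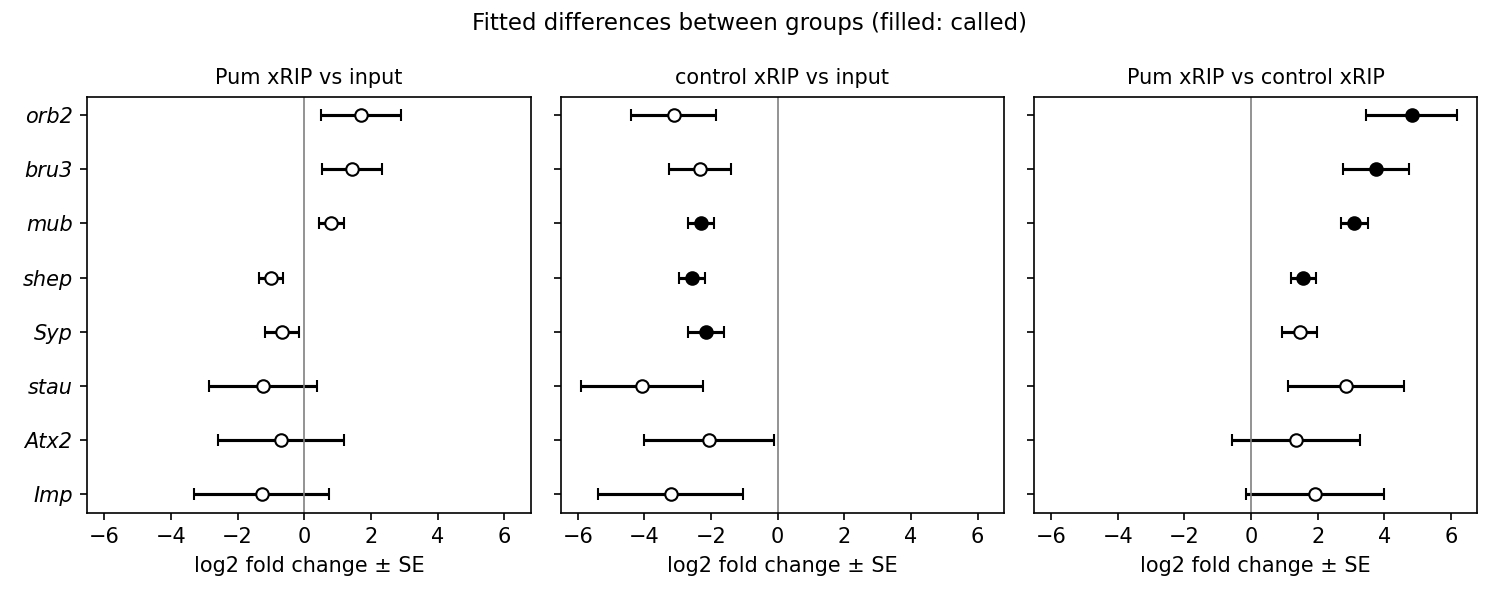
Log2 fold change ± SE of 8 members in the 3 comparisons, fitted with edgeR on all 12 libraries, with filled points for calls. Fmr1 is left out because its Pum xRIP libraries hold no counts. In Pum xRIP against control xRIP orb2 (4.82), bru3 (3.75), mub (3.10) and shep (1.57) are filled, and against input none is.

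Next, the clusters of 3′ ends within each gene were examined. A cluster is a group of neighbouring 3′ ends with a number that was read as running along the genome, so that on the minus strand number 1 is the most distal. This reading rests on genes with 4 or more clusters, where 574 of 2245 on the plus strand had their most abundant cluster last in number and 167 first, while 165 of 2308 on the minus strand had it last and 523 first. Clusters have no coordinates in the tables, so none was placed relative to a PRE. The number of clusters per member ranged from 16 in Atx2 to 112 in shep, and 56 of the 429 passed the filter, none of them in Fmr1. A Pum xRIP library held counts at 10 to 19 clusters of shep, 9 to 20 of mub and 6 to 14 of bru3, where an input held 53 to 65, 34 to 55 and 19 to 34. In control xRIP the ranges were 3 to 5, 1 to 3 and 0 to 6.

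In orb2, cluster 21 was the main 3′ end in both Pum xRIP and input. It took 57.2%, 51.9%, 46.8% and 48.1% of orb2 counts in Pum xRIP libraries 1 to 4, and 43.8%, 46.3%, 44.7% and 48.6% in the inputs. Its level was 221, 115.1, 157 and 77.4 CPM in Pum xRIP, above the 44.8 to 54.7 CPM of all inputs, and 0 in all controls. Cluster 30 took 25.3%, 16.8%, 16.1% and 16.8% of the counts in Pum xRIP and 16.7% to 30.9% in input. Cluster 34 varied between Pum xRIP libraries from 0% to 31.2%. The most distal one, cluster 1, took 0% to 11.5% in Pum xRIP and 1.44% to 24.3% in input. The few orb2 counts of control xRIP, 28 in library 3 and 119 in library 4, fell at clusters 1 and 16.

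In bru3, cluster 46 took 23.3%, 23.4%, 18.7% and 21.9% of the counts in Pum xRIP and 37.4%, 29.4%, 34.9% and 30.9% in input, so the shares did not overlap. Its level was 165, 151, 114.9 and 128 CPM in Pum xRIP and 161, 79.4, 85.0 and 80.4 CPM in input, which did overlap. The remaining counts in Pum xRIP were spread over ends that differed by library. Cluster 17 held 32.6% in library 2 and 12.2% to 14.7% in the others, and cluster 43 held 39.8% in library 3. In control xRIP cluster 43 held 219 of 229 bru3 counts in library 2 and 125 of 162 in library 3. In library 4, which had the most bru3 counts of the group at 309, cluster 43 held 36, cluster 49 held 152 and cluster 11 held 59. Cluster 46 had 0 counts in the group.

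In mub, cluster 87 took 64.2%, 13.4%, 23.1% and 23.3% of the counts in Pum xRIP and 21.7% to 31.5% in input. Cluster 49 held 976 counts in Pum xRIP library 4 and 105, 441 and 159 in libraries 1 to 3, and it held 986 counts in the pum input against 178 to 233 in the other inputs. Cluster 23, with 137 to 296 counts in each input, had 0 counts in all Pum xRIP libraries and 174, 0, 0 and 51 in control xRIP libraries 1 to 4. Its floor of 3 counts over the group put it at least 143-fold lower in Pum xRIP than in input, with counting error only. The edgeR test on single clusters, described below, did not call it in Pum xRIP against input (adjusted p = 0.0573) or against control xRIP (adjusted p = 0.0547). For shep no cluster took more than 14.9% of the pooled Pum xRIP counts, and cluster 1, the most distal, had 0, 0, 215 and 187 counts there while all controls and inputs held some. In Syp, cluster 18 led with 42.2% to 71.0% of the counts in Pum xRIP and 45.5% to 64.5% in input.

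Atx2, stau and Imp had few clusters with counts outside input. The main Atx2 end of the inputs, cluster 8 with 74.6% of their counts, had 69, 0, 21 and 154 counts in Pum xRIP and none in control xRIP. In stau, cluster 12 held 65.7% of the pooled counts of input and 23.6% of those of Pum xRIP, while cluster 24 held 21.6% and 50.9%, all from Pum xRIP libraries 2 to 4. By library these shares overlapped. Cluster 12 held 40.1% to 78.3% in input and 0% to 73.0% in Pum xRIP. Cluster 24 held 6.96% to 44.0% in input and 0% to 100% in Pum xRIP, which had 550 stau counts in all. For Imp, 111 of its 154 Pum xRIP counts came from cluster 13 in library 3. The 61 Fmr1 counts of control xRIP all came from cluster 13, which held 32.9% of the pooled input counts.

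**Figure D3:**
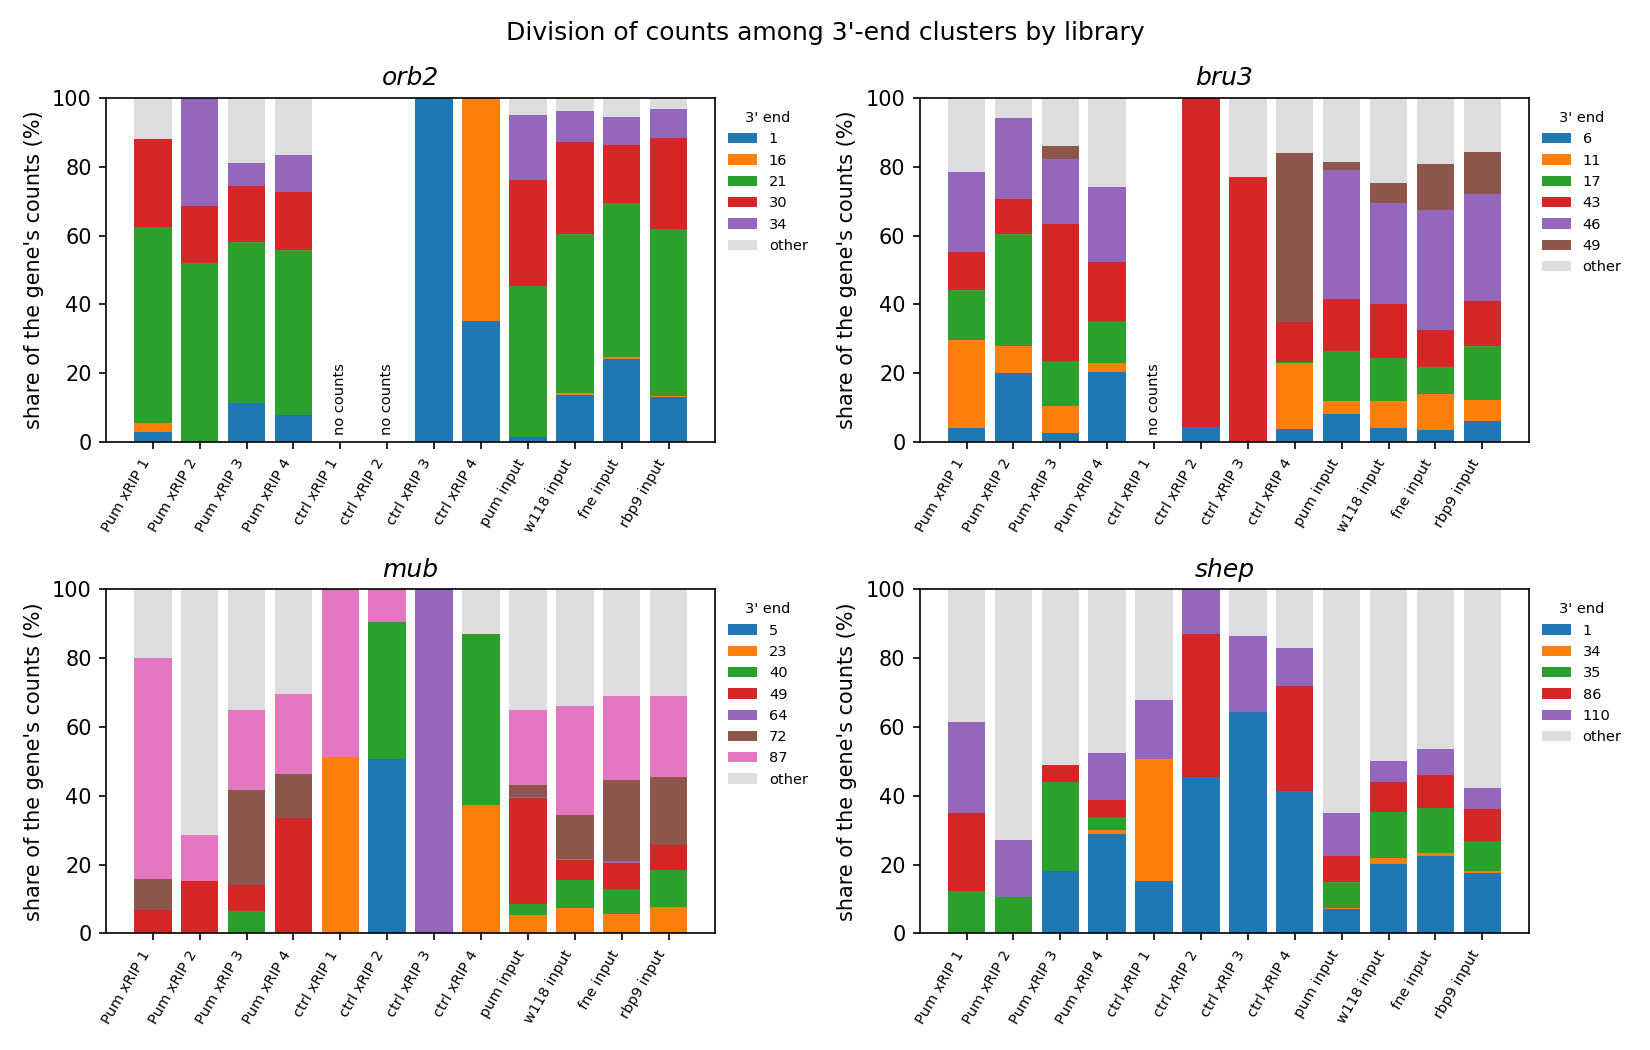
Share of the counts of orb2, bru3, mub and shep at each numbered 3′-end cluster with at least 10% in a group, by library, with grey for the other clusters. Cluster 21 holds 46.8% to 57.2% of orb2 counts in Pum xRIP and 43.8% to 48.6% in input, whereas the ends that lead in mub differ between Pum xRIP libraries.

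The test on single clusters called 0 of 56 higher and 3 lower in Pum xRIP against input, where 0.211% and 9.48% of 14235 clusters were called. The 3 were clusters 76 and 109 of shep and cluster 19 of Imp. The Imp cluster held 27 to 64 counts in each input and 1 count over all Pum xRIP libraries, and the shep clusters had no counts in either xRIP group. All 3 passed the filter on low counts through the inputs alone and could differ in this direction only, so the calls are no support for a difference. The call of shep cluster 76 was also lost without any 1 of the inputs (adjusted p = 0.0814 to 0.0937). Control xRIP against input gave 0 higher and 27 lower, against 0.576% and 25.6% of all clusters, and 25 of the 27 had no counts in the controls. Those 25 passed the filter through the other groups and could come out lower only, so their calls are no support for a difference. With cluster 17 of bru3, which had 1 control count, 26 of the 27 were at or under the floor of 3 counts over the group. Its call is no support either. Pum xRIP against control xRIP gave 18 higher and 0 lower, against 8.91% and 3.07%, and 16 of the 18 had no counts in the controls. Those 16 passed the filter through the other groups and could come out higher only, so their calls are no support for a difference. With cluster 17 of bru3, 17 of the 18 were at or under the floor in the controls, and its call is no support here either. Of the 18, mub had 6, bru3 had 5, orb2 had 3, shep had 2, and Atx2 and stau had 1 each. The orb2 clusters 21, 30 and 34 were at 0 in all controls, and the floor of 3 counts over that group put their Pum xRIP levels higher by at least 694-fold, 263-fold and 133-fold. Without Pum xRIP library 2, which held most of the counts of cluster 34, the limit for that cluster was 65.0-fold. Cluster 46 of bru3 was at least 678-fold higher by the same floor. These limits cover counting error only, while a detected 3′ end had a median of 73 to 105 counts in a control xRIP library. Other settings tested other numbers of clusters. Against the 18 of 56 here, edgeR on the groups compared called 7 of 20 higher, where 9.50% of all clusters were. Without the 2 inputs of mixed genotype 5 of 79 were called, where 1.44% of all were. Leaving out 1 library at a time gave from 7 of 60 (without the rbp9 input, 3.19% of all) to 19 of 63 (without Pum xRIP library 2, 11.6%).

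Whether the division of a gene's counts among its ends differed between Pum xRIP and control xRIP was tested with diffSpliceDGE of edgeR in genes with more than 1 tested cluster. It called 7 of the 8 members tested at an adjusted p below 0.05, where 39.7% of 3095 genes were called. On simulated counts this test was tried only at 1 low scatter for all groups, so its adjusted p-values are untried at the scatter of these libraries. Imp, the other one, had no control counts at its tested clusters, so there was no division to compare. The smallest adjusted p was 3.88e-06 for mub, followed by 2.98e-05 for bru3 and 0.000246 for orb2. The control side of this test rests on the counts at tested clusters, 563 for mub in 3 libraries, 614 for bru3 in 3 libraries and 70 for orb2 in 2 libraries, the last all at cluster 1. For stau it rests on 50 counts and for Atx2 on 42, in each case at 1 cluster of 1 library. In orb2, stau and Atx2 all other tested clusters had no control counts and passed the filter through the other groups. Their divisions could differ in this direction only, so the calls of orb2, stau and Atx2 are no support for a difference. With only the groups compared in the fit, the call was kept for mub, bru3 and orb2, the last with the same limit. It was lost for shep and Syp, and stau, Atx2 and Imp were not tested. The call of stau was lost without control xRIP library 3 (adjusted p = 0.937), and that of Atx2 was kept in 3 of the 12 fits that left out 1 library, those without Pum xRIP library 1, 2 or 3.

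Other RNA regulators were described with a list of 59 genes, of which 57 were in the table and 56 were tested. Against control xRIP, 9 of 56 were called higher in Pum xRIP and none lower, where 7.72% of all genes were higher and 4.45% lower. At an unadjusted p below 0.05 were 21 of 56, where 32.5% of all genes passed, and the median log2 fold change was 1.39. The 4 with the largest change were Tob, a deadenylation regulator (6.02 ± 0.48 SE, adjusted p = 5.71e-06), tral, a component of RNA granules (4.51 ± 1.05, adjusted p = 0.0140), Rbfox1, a splicing and translation regulator (4.16 ± 1.11, adjusted p = 0.0288), and Rbp6 of the Musashi family (4.13 ± 0.36, adjusted p = 1.25e-05). Against input, 2 of 56 were called higher and 1 lower, where 0.549% and 4.87% of all genes were. Tob was higher (2.82 ± 0.42, adjusted p = 0.00275), with 1030.1 ± 200.6 CPM in Pum xRIP and 146 ± 16.2 CPM in input (SD, n = 4), and msi, encoding Musashi, was higher too (2.33 ± 0.63, adjusted p = 0.0474). The poly(A)-binding protein gene pAbp was lower (−1.78 ± 0.33, adjusted p = 0.00909). The call of msi was lost in 7 of the 12 fits that left out 1 library, those without Pum xRIP library 1, 2 or 3 or any input, and all 3 calls were lost without the 2 inputs of mixed genotype. Against control xRIP the call of Rbfox1 was lost in 3 of the 12.

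Control xRIP held 12 of the 56 lower than input and none higher, where 10.7% and 1.82% of all genes were. Those with the largest change were bru2, another CELF gene, with no counts in the controls and at least 31.7-fold lower by the floor of 3 counts over the group, fne of the ELAV family (−3.60), and the hnRNP genes sqd (−3.42) and Hrb27C (−3.41). Each of these 4 calls was lost in some of the 12 fits that left out 1 library, in 8 for bru2, 4 for fne, 10 for sqd and 5 for Hrb27C. With no control counts, bru2 could come out lower only, so its call is no support for a difference, and its limit covers counting error only. By role, the 20 tested neuronal RNA-binding protein genes had a median log2 fold change of 1.91 in Pum xRIP against control xRIP with 5 called higher. The 23 genes of repression and granules had 1.89 with 4 called, and the 13 genes of transport and hnRNPs had −0.14 with none called. Differences between these sets were not tested.

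**Figure D4:**
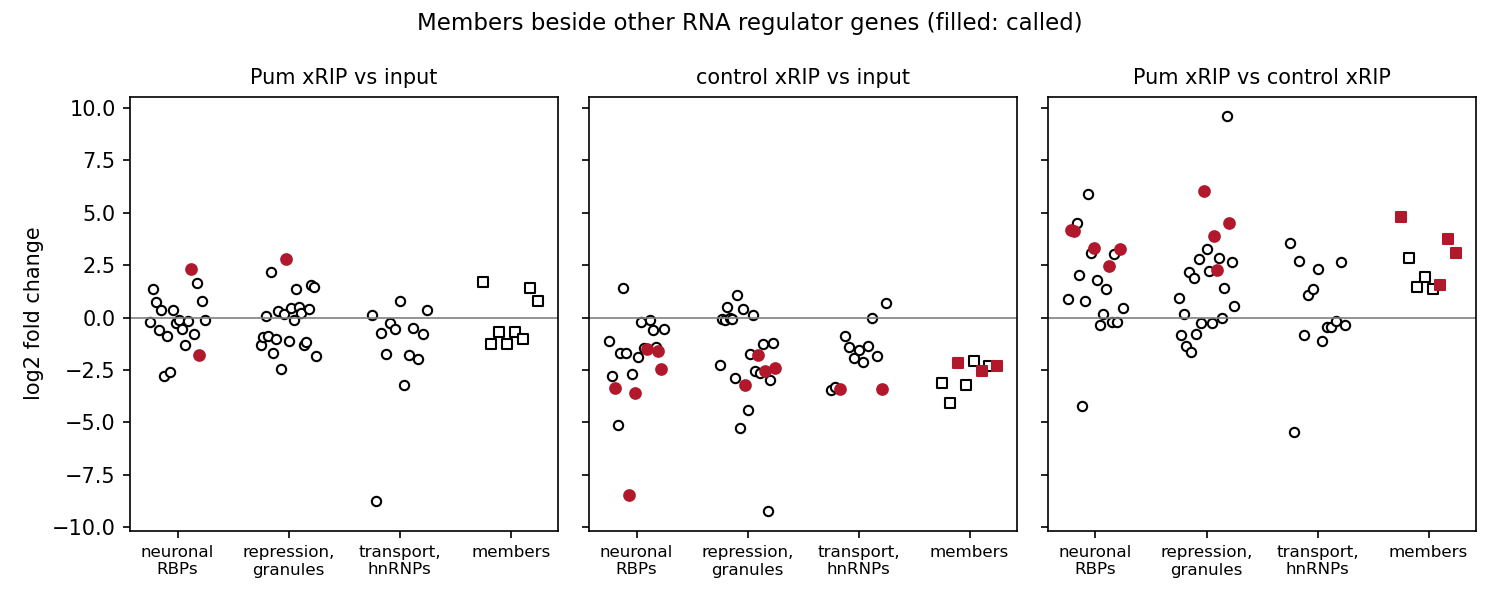
Log2 fold change of each tested gene of the wider list, by role, and of 8 members (squares, Fmr1 left out) in the 3 comparisons, with filled points for calls. In Pum xRIP against input the filled points are Tob (2.82), msi (2.33) and pAbp (−1.78), and no member is filled.

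Genes with the most similar pattern were sought among 5508 tested genes with a mean of at least 10 CPM, by Pearson's r of log2(CPM + 1) over the 12 libraries, which share their groups and depth. They are given as a description. For orb2 they were Aef1 (r = 0.987) and Dora (r = 0.986), for bru3 CG31038 (r = 0.993) and spen (r = 0.987), and for mub nej and dpr12 (r = 0.979 each). For shep they were Drak (r = 0.972) and Evi5 (r = 0.960), and for Syp mxt and Msp300 (r = 0.957 each). Mean levels of spen were 853 CPM in Pum xRIP, 309 in input and 39.7 in control xRIP, the order that bru3 has.

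In the dm6 genome, orb2 lies at chr3L:8937100-8954463, shep at chr3L:5155821-5277944 and bru3 at chr3L:13521907-13803400, all on the minus strand, and mub lies at chr3L:21844788-21932702 on the plus strand. Fmr1 lies at chr3R:10101420-10110121 on the minus strand, and Syp at chr3R:20756729-20810726 and Atx2 at chr3R:15408423-15417277 on the plus strand. Imp lies at chrX:10787869-10824277 and stau at chr2R:18117896-18125779, both on the minus strand. The annotation gave 7 distinct 3′ UTR ends for Imp, 5 each for orb2, bru3 and Fmr1, 4 each for shep and mub, 3 for Syp and 2 each for stau and Atx2.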

How the data were processed

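Adult head RNA from 12 libraries (4 Pum xRIP, 4 control xRIP, 4 input) was analysed. Reads had been trimmed (fastp) and aligned to dm6 (STAR 2.6.1b) by the authors, who removed signal next to genomic A runs, merged neighbouring 3′ ends into clusters and deposited raw counts per gene and per cluster, with no normalization. The kit was Lexogen QuantSeq REV, and no molecular identifiers are described, so intervals cover counting error only. The gene table equals the sum of clusters in all 10422 genes. Tables prepared for DESeq held the same counts and were not used, and 0 value columns were left unmapped. The fne and rbp9 inputs entered the input group without a number. Nothing states that replicates came from separate flies, so p-values measure only the spread between libraries.

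Counts were filtered with filterByExpr, scaled by TMM and fitted with edgeR 4.0.16 (glmQLFit, glmQLFTest, Benjamini-Hochberg over all features) in R 4.3.3. DESeq2 1.42.0, other scalings, no filter, the 2 groups compared alone, fits without the 2 inputs of mixed genotype, fits without 1 library and a replicate block were tried. In these fits the SE is the absolute log2 fold change divided by the root of F. Scripts were tested on simulated data. With scatter set per group as in these libraries, the test across genes recovered fold sizes, but most of its calls were of unchanged genes. The test of division among clusters was simulated only at 1 low scatter for all groups. 3′ UTRs came from Ensembl 115 and the dm6 genome of RefSeq. Members and lists were chosen with earlier results of these data known. All 9 members were named, up to 4 genes of the wider list per direction and comparison by absolute log2 fold change among those called, the 2 most similar genes per member called in any comparison, and clusters with at least 10% of a gene's counts in a group. Clusters 76 and 109 of shep were named after their values were seen.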

Additional observations from a re-analysis of the deposited data

Results flagged for a closer look

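Among the 26 sets of 4 libraries of 1 group with unequal values for a member, 3 held a library far from the others by Dixon's ratio. All 3 were single control xRIP libraries with the other 3 at 0, where the ratio passes its limit at any value, so the rate of about 1 in 20 sets that chance gives does not apply. Fmr1 had 16.8 CPM in control xRIP replicate 1, stau had 16.04 CPM in replicate 3, and Imp had 7.93 CPM in replicate 4. In each case a single cluster held all the counts.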

How the results depend on the processing

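The direction of the members' log2 fold changes held under the alternatives tried, except for Fmr1 in control xRIP against input, which turned to −0.15 without the 2 inputs of mixed genotype, −7.76 without control xRIP replicate 1 and −0.12 without the fne input, with a range of −7.76 to 0.24 when 1 library was left out. Its difference between Pum xRIP and control xRIP was 0.0 without control xRIP replicate 1, since no counts were left. Members called in Pum xRIP against input numbered 2 higher and 2 lower with edgeR or DESeq2 on the 2 groups compared and 1 lower with DESeq2 on 3 groups. Members higher in Pum xRIP than in control xRIP numbered 2 with edgeR on the 2 groups (270 of 4776 genes) and 1 without the mixed inputs (228 of 8249 genes). DESeq2 on 3 groups called 1 lower there, where 628 of all genes were. Wherever members were called lower here, Fmr1 was among them, and with 0 Pum xRIP counts it could come out lower only. The settings named here also tested other numbers of member clusters. Those lower in Pum xRIP than in input numbered 7 of 64 with edgeR on the 2 groups (19.7% of all clusters), 28 of 133 with DESeq2 on the 2 groups (28.4%), which called 2 higher, and 1 of 79 without the mixed inputs (4.31%). Those lower in control xRIP than in input numbered 67 of 131 with DESeq2 on the 2 groups (39.4%) and 8 of 79 without the mixed inputs (5.93%). Those higher in Pum xRIP than in control xRIP numbered 34 of 64 with DESeq2 on 3 groups (24.4%, with 2 lower), 7 of 20 with edgeR on the 2 groups (9.50%) and 5 of 79 without the mixed inputs (1.44%). The division among ends was called in 3 members with edgeR on the 2 groups, with orb2 among them under the limit given above. The motif ATANATGT stood in 6 members. The cause of these shifts was not tested.

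Leaving out 1 library gave 0 to 1 members higher and 0 to 1 lower in Pum xRIP against input, 3 to 5 lower in control xRIP against input, and 2 to 4 higher in Pum xRIP against control xRIP. Over all genes, 7768 to 8121 tested, the same fits gave 18 to 67, 208 to 709, 464 to 1241 and 354 to 653 in that order. Of 58 to 67 member clusters tested, those fits called 2 to 11 lower, 12 to 41 lower and 7 to 19 higher in the 3 comparisons. The shares of all clusters ran from 5.75% to 20.1%, from 10.5% to 36.0% and from 3.19% to 11.6%. The division among ends was called in 5 to 7 members. With the replicate number as a block, Pum xRIP against control xRIP gave 1 member higher (mub), where 245 of 4776 genes were. It gave 4 of 20 member clusters higher, where 5.21% of all clusters were. The same-numbered libraries share only a number (r = 0.003 to 0.025, other numbers −0.031 to 0.032), and 2 of 4 Pum xRIP libraries correlated best with their own. In the wider list, the 2 higher and 1 lower in Pum xRIP against input became 6 and 4 with edgeR and 7 and 4 with DESeq2 on the 2 groups, and 0 and 0 without the mixed inputs. The 12 lower in control xRIP became 20 with DESeq2 on the 2 groups, 5 with no filter and 3 without the mixed inputs, and the 9 higher in Pum xRIP than in control xRIP became 21 with DESeq2 on 3 groups, 15 on the 2 groups and 5 without the mixed inputs. Over all genes, the 42 higher and 372 lower in Pum xRIP against input became 264 and 944, 457 and 1621, and 2 and 33 in the same order. The 817 lower in control xRIP became 2059, 331 and 253. The 590 higher in Pum xRIP than in control xRIP became 1338, 710 and 228. These settings tested other numbers of genes. At its input level Fmr1 would give 13.1 to 23.8 counts per Pum xRIP library and Imp 62.3 to 113.2, and whether that depth bears on their levels was not tested.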
